A study of Mus musculus with 9 samples.

Results

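The interleukin-20 subfamily and its receptor chains were examined in back skin RNA of mice with DNCB-induced dermatitis. The members were 8 genes chosen by name, namely the ligands Il19, Il20, Il24 and Il22 and the receptor chains Il20ra, Il20rb, Il22ra1 and Il10rb. They are 8 of the 34637 genes in the deposited FPKM table and of the 55401 genes in the count table. The choice was made with results of the MR against MXL comparison known, so the differences of the members in that comparison are given as a description without a test.

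All mice were C57BL/6 males aged 6 to 8 weeks. Each was sensitized on the shaved back on day 1 with 200 µL of 1% DNCB, a small reactive molecule that raises a contact allergy, and challenged with 100 µL of 0.5% DNCB from day 4 to day 21. The Model group was taken to have received water, although the paper names no oral vehicle for it. The FJDHF group received Fangji Dihuang formulation, a herbal preparation, by mouth each day after day 7 until day 28. The paper names the sequenced treated mice as its medium-dose group. Every library therefore came from DNCB-treated skin, and skin without DNCB was not analysed here. The 5 libraries with codes starting with MR were taken as FJDHF and the 4 starting with MXL as Model, because the column numbers match those of the mice and because MX could abbreviate the Chinese term for a model. No source explains the codes, and every direction below rests on this assumption. Whether a code such as MR3_4 or MXL12 stands for a pool of mice was not stated, and each n is a number of libraries.

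Total counts per library lay between 74648669 and 79474215. Epidermal markers were present in all 9 libraries, with the summed level of 7 basal keratinocyte genes between 1352 and 7117 CPM (counts scaled for library size and composition). Skeletal muscle genes summed to 481.58 CPM in MXL12 and to 12822 CPM in MXL_3, which were the lowest and the highest library. In skin tissue as a whole, fewer cells of a type and less RNA per cell cannot be told apart.

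IL-19, IL-20, IL-24 and IL-22 are relatives of IL-10 that act mainly on epithelial cells. IL-19, IL-20 and IL-24 bind a receptor made of the IL-20RA and IL-20RB chains, IL-20 and IL-24 also bind one made of IL-22RA1 and IL-20RB, and IL-22 binds one made of IL-22RA1 and IL-10RB. These receptors signal through JAK1, TYK2 and STAT3. In keratinocytes the pathway is known for driving growth and antimicrobial gene expression and for holding back terminal differentiation.

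The genes Il24, Il20 and Il19 lie side by side on the minus strand of mouse chromosome 1 in build GRCm38. Il24 (ENSMUSG00000026420) spans 130882074 to 130887454, Il20 (ENSMUSG00000026416) 130906985 to 130911451 and Il19 (ENSMUSG00000016524) 130932656 to 130940101. Promoter windows of 300 bases were matched by symbol in RefSeq (GRCm38.p6) for 6 of the 8 members. Those of Il19 and Il20 are printed because these neighbours had very different values in MXL12, as described below. Each runs 5′ to 3′ on the minus strand from 250 bases before to 50 bases after the RefSeq start site, and capitals mark motif matches. The Il19 window is chr1:130940066-130940365 and the Il20 window is chr1:130911247-130911546.
Il19: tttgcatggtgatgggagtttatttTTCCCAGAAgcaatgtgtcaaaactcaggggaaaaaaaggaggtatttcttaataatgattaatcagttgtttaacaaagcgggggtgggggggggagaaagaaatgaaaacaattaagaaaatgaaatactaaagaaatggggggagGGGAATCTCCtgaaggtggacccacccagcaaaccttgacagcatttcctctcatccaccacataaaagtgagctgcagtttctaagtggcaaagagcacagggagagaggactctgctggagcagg
Il20: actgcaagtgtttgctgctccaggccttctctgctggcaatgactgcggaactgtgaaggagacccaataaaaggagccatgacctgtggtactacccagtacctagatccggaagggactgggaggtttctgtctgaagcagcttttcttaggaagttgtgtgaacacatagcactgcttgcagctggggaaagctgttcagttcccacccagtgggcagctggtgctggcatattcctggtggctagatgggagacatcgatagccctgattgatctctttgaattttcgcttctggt
Both strands were searched for the STAT motif TTCNNNGAA, the AP-1 motif TGANTCA, the TATA box TATAAA and the NF-kB motif, and none of the matches found overlapped. In the Il19 window a STAT match began 225 bases before the start site and an NF-kB match 77 bases before it. The Il20 window held none of the 4 motifs. Of 32851 mouse promoter windows of this length, 8.3% held the STAT motif, 8.46% the NF-kB motif, 7.81% the AP-1 motif and 13.6% the TATA box. The AP-1 motif occurred once in the windows of Il20ra and Il22ra1, the NF-kB motif once in that of Il22ra1 and the TATA box once in that of Il22. These matches are descriptions of sequence and not measured binding sites.

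Among the ligands, Il24 and Il19 were abundant in a single library, MXL12. Il24 encodes a cytokine made by keratinocytes and leukocytes. It had 0, 8, 9, 53 and 36 counts in MR1, MR3, MR3_4, MR4_5 and MR5, and 9, 1405, 0 and 4 counts in MXL1, MXL12, MXL3_4 and MXL_3. MXL12 held 92.2% of all Il24 counts and lay 27.9 times above MR4_5, the next library, in CPM. The MR and MXL libraries overlapped, with or without MXL12.

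Il19, which encodes a cytokine of myeloid cells and keratinocytes, had 9, 0, 22, 0 and 15 counts in the MR libraries in the same order and 4, 795, 26 and 8 counts in the MXL libraries. MXL12 held 90.4% of the Il19 counts and lay 31.4 times above MXL3_4, the next library, in CPM. Without MXL12 the Il19 counts of the remaining 8 libraries lay between 0 and 26, and the groups overlapped.

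Il20 encodes a keratinocyte-acting cytokine and lies between Il24 and Il19. It had 53, 34, 55, 118 and 85 counts in the MR libraries and 97, 54, 83 and 15 counts in the MXL libraries. MXL12 ranked the 6th of 9 libraries for Il20 and held 9.09% of its counts. The highest library was MR4_5 and the lowest MXL_3.

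Il22, a cytokine of T cells and innate lymphoid cells (ENSMUSG00000074695, chromosome 10, 118204942 to 118210047, plus strand), had 0 counts in all 5 MR libraries and in 3 of the 4 MXL libraries. MXL12 had 8 counts, with an exact 95% Poisson interval of 3.45 to 15.8 counts that covers counting error only. A count of 0 allows up to 3 counts in a library, so a difference between the groups was not detectable at this depth. Transcripts of Il22 and its near-identical copy Iltifb shared 97.4% of 1110 aligned bases, so the split of reads between these genes is uncertain. Iltifb had 0 counts in all 9 libraries.

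**Figure D1:**
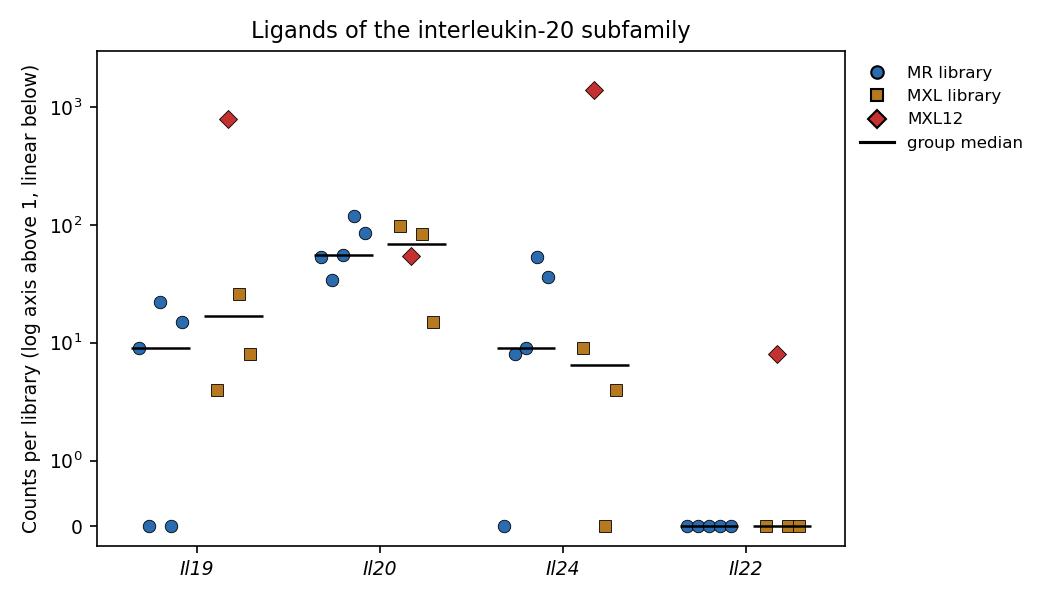
Counts per library of the 4 ligand genes, on an axis that is logarithmic above 1 and linear below. Each point is 1 library (5 MR, 4 MXL) and lines are group medians. MXL12 has 1405 counts of Il24 and 795 of Il19, far above the other 8 libraries, but 54 counts of Il20.

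Within the cluster, Il20 did not share the high values of its neighbours in MXL12. On the scale of log2(FPKM + 0.1), where FPKM is the authors' value scaled for gene length and depth, MXL12 differed from the median of the other 8 libraries by 6.23 for Il24, by 5.56 for Il19 and by −0.28 for Il20. The start site of Il20 lies 24 kb and that of Il19 52.7 kb from that of Il24. Il10, which encodes the anti-inflammatory founder of the family at 132.4 kb, had 51 counts there against 8 to 157 elsewhere. Of the other neighbours, Fcmr, an IgM receptor gene on the other side of Il24, had 17 counts against 16 to 53. Pigr, which encodes the receptor that carries IgA and IgM across epithelia, had 0 counts against 11 to 57. Mapkapk2, a stress kinase gene at 210.4 kb, had 8385 counts against 7659 to 11614.

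**Figure D2:**
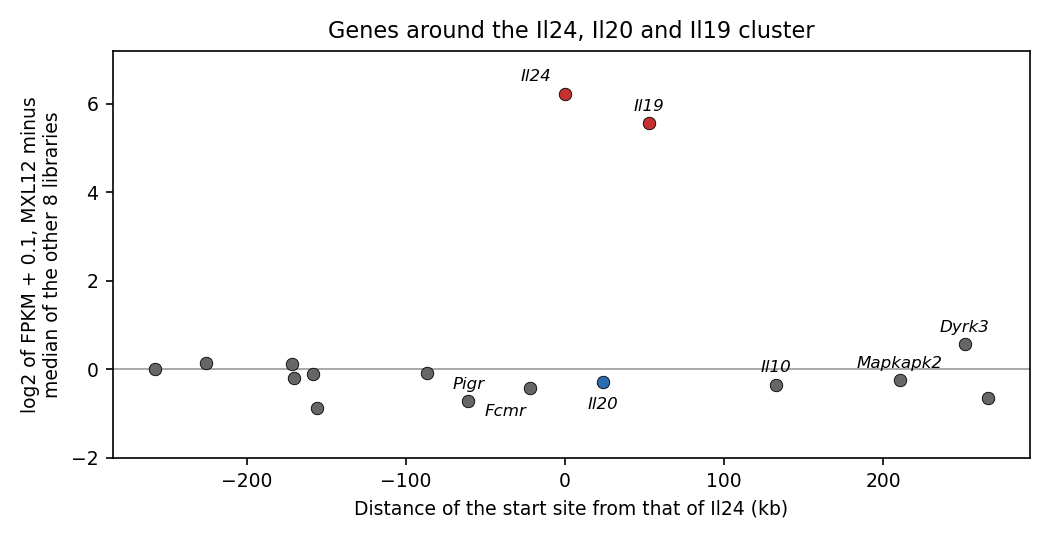
Genes around the Il24, Il20 and Il19 cluster. The horizontal axis is the distance of each start site from that of Il24 in kb and the vertical axis the difference in log2(FPKM + 0.1) between MXL12 and the median of the other 8 libraries. Il24 (6.23) and Il19 (5.56) stand above all neighbours, while Il20 between them is at −0.28.

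The 4 receptor chains were above the counting floor in every library. Il20rb encodes the chain shared by the IL-19, IL-20 and IL-24 receptors (ENSMUSG00000044244, chromosome 9, 100457719 to 100486788, minus strand). Its level was 24.9, 19.2, 18.2, 28.0 and 27.9 FPKM in MR1, MR3, MR3_4, MR4_5 and MR5, and 29.1, 15.7, 19.5 and 12.3 FPKM in MXL1, MXL12, MXL3_4 and MXL_3. The highest library was MXL1 and the lowest MXL_3, both of the MXL group.

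Il20ra encodes the partner chain (ENSMUSG00000020007, chromosome 10, 19712570 to 19760053, plus strand). Its level was 0.672, 0.496, 0.358, 0.346 and 0.591 FPKM in the MR libraries and 1.15, 1.67, 0.462 and 0.568 FPKM in the MXL libraries. MXL12 and MXL1 lay above all MR libraries, whereas MXL3_4 and MXL_3 lay within their range. MXL12 was 1.49 times above MXL1 in CPM, and its 324 counts were 26.1% of all Il20ra counts.

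Il22ra1 encodes the chain that gives IL-22 its epithelial specificity (ENSMUSG00000037157, chromosome 4, 135728172 to 135752140, plus strand). Its level was 2.50, 4.96, 1.66, 4.03 and 1.06 FPKM in the MR libraries and 6.83, 0.867, 1.83 and 1.05 FPKM in the MXL libraries. MXL1 was the highest and MXL12 the lowest of the 9 libraries.

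Il10rb encodes the chain shared by the IL-22 and IL-10 receptors (ENSMUSG00000022969, chromosome 16, 91406164 to 91425834, plus strand). Its level was 16.7, 13.6, 17.0, 12.9 and 11.1 FPKM in the MR libraries and 9.93, 13.5, 10.006 and 17.3 FPKM in the MXL libraries. MXL_3 was the highest library and MXL1 the lowest. Exons of Il10rb overlap those of Gm21970 on the same strand, so reads could be split between these genes.

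**Figure D3:**
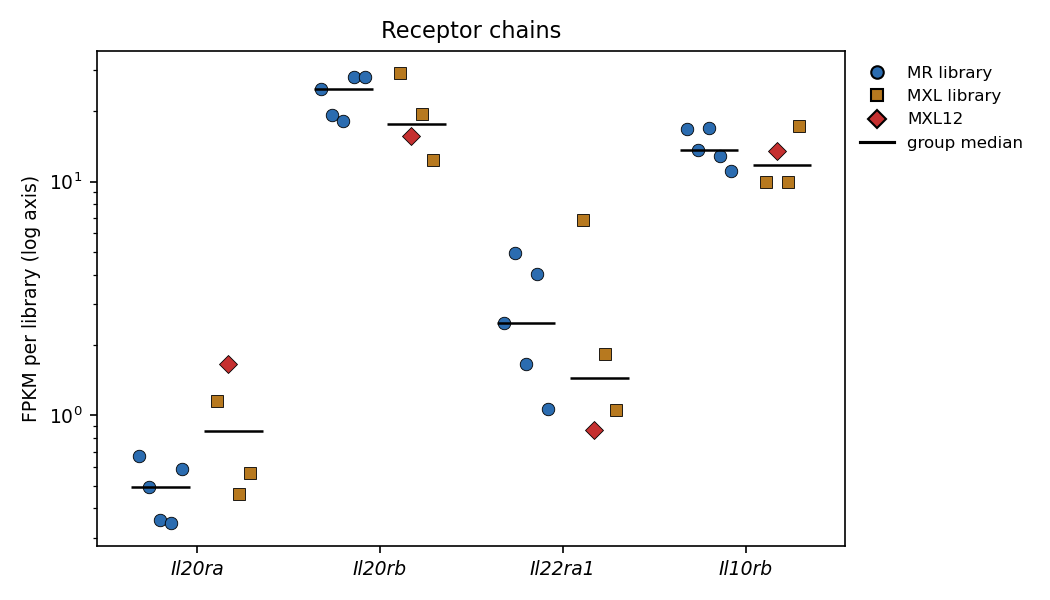
FPKM per library of the 4 receptor chain genes on a log axis. Each point is 1 library (5 MR, 4 MXL) and lines are group medians. The MR and MXL points overlap for each chain, and MXL12 is the highest library for Il20ra (1.67) and the lowest for Il22ra1 (0.867).

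Per length, the chains differed in level. Mean levels over the 9 libraries were 21.6 ± 6.02 FPKM for Il20rb, 13.6 ± 2.91 for Il10rb, 2.76 ± 2.08 for Il22ra1, 0.701 ± 0.434 for Il20ra and 0.680 ± 0.333 for Il20 (SD, n = 9). Il24, Il19 and Il22 followed in the order of mean log2(FPKM + 0.1), with medians of 0.0732, 0.0884 and 0 FPKM. Neighbours in this order were compared within libraries by a two-sided exact sign-flip permutation test on log2(FPKM + 0.1), adjusted over 7 pairs. The order was taken from these same values, so the pairs and their directions were not fixed in advance. The p values thus describe how steady each gap was across libraries. Il20rb exceeded Il10rb in 8 of 9 libraries (mean difference 0.65, exact p = 0.0195, adjusted 0.0342) and Il10rb exceeded Il22ra1 in 9 of 9 (2.55, exact p = 0.0039, adjusted 0.0273). Il22ra1 exceeded Il20ra in 8 of 9 libraries (1.66, exact p = 0.0156, adjusted 0.0342). Il19 exceeded Il22 by 1.42 on average, but no test is read for this pair, because Il22 was at 0 in 8 libraries and the difference could not be negative there. The pairs Il20ra and Il20 (0.033, exact p = 0.918, adjusted 0.918), Il20 and Il24 (1.24, exact p = 0.137, adjusted 0.191) and Il24 and Il19 (0.058, exact p = 0.891, adjusted 0.918) did not differ beyond their spread.

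The smallest p that 9 libraries allow here is 0.0039 and that 8 allow is 0.0078. The 3 calls among receptor chains were lost, with adjusted p values from 0.0547 upward, when any of MR1, MR3, MR3_4, MR4_5, MR5, MXL1 or MXL3_4 was left out. Without MXL_3, Il20rb over Il10rb and Il10rb over Il22ra1 kept their calls. Without MXL12 all 3 kept them, and Il20 exceeded Il24 by 1.93 (exact p = 0.0078, adjusted 0.0182).

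The ratio of receptor partners differed between libraries. Il20rb exceeded Il20ra by 37.1 to 80.8 times in FPKM in the MR libraries and by 9.44 times in MXL12, 25.3 times in MXL1 and at most 42.2 times in the MXL group. Il22ra1 exceeded Il20ra by 1.80 to 11.7 times in the MR libraries, and the ratio was 0.521 in MXL12. MXL12 was thus the only library with more Il20ra than Il22ra1 per length. Il10rb exceeded Il22ra1 in each library, by 1.45 times in MXL1 to 16.4 times in MXL_3.

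The question of the study design is how FJDHF changed the skin of DNCB-treated mice. Across the transcriptome, edgeR's quasi-likelihood test called 0 of 20817 genes (0.0%) at 2-fold or more with a Benjamini-Hochberg adjusted p under 0.05. An unadjusted p under 0.05 was reached by 326 genes (1.57%), and DESeq2's Wald test called 2 genes, Casp14 and Defb8, neither of them a member. Of the 8 members, 6 passed the filter on low counts and Il24 and Il22 did not. The MR and MXL libraries overlapped in CPM for all 8 members, while they did not overlap for 107 of the 20817 tested genes (0.514%).

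Fold changes of Il19 and Il24 followed MXL12, and that of Il20 did not. The log2 fold change of MR over MXL was −4.48 (SE 1.64) for Il19, with 0.123 ± 0.130 CPM in MR (SD, n = 5) and 2.75 ± 5.18 CPM in MXL (SD, n = 4). Without MXL12 it was −0.43 (SE 1.38 with no filter on low counts), and MXL had 0.166 ± 0.150 CPM (SD, n = 3). Il24 had 0.27 ± 0.281 CPM in MR and 4.69 ± 9.27 CPM in MXL, which gave −4.11 (SE 1.86) in the fit with no filter. Without MXL12 the direction turned to 2.21 (SE 1.49), with 0.0564 ± 0.0569 CPM in the 3 remaining MXL libraries. Il20 had 0.891 ± 0.406 CPM in MR and 0.805 ± 0.452 CPM in MXL, a log2 fold change of 0.15 (SE 0.53), and 0.09 (SE 0.60) without MXL12 and filter. Its sign turned without MR4_5 (−0.12) or MXL_3 (−0.17) and with a replicate block (−0.13), which also left out MR4_5, MR5 and MXL12. No fold is given for Il22, for which 8 of 9 libraries were at 0.

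Among the receptor chains Il20ra had the largest difference, −0.97 (SE 0.41), from 1.26 ± 0.368 CPM in MR and 2.47 ± 1.41 CPM in MXL. Without MXL12 it was −0.58 (SE 0.40), with 1.87 ± 0.882 CPM in the remaining MXL libraries. Il20rb had 103.53 ± 19.1 CPM in MR and 85.1 ± 29.8 CPM in MXL (0.28, SE 0.24), and Il10rb had 56.9 ± 11.8 and 51.6 ± 15.4 CPM (0.14, SE 0.23). For Il22ra1 the values were 7.56 ± 4.16 and 7.11 ± 7.36 CPM (0.089, SE 0.64), and leaving out MXL1, its highest library, moved the log2 fold change to 1.12. Its sign turned when MR3 (−0.22), MR4_5 (−0.060), MXL12 (−0.20), MXL3_4 (−0.043) or MXL_3 (−0.17) was left out.

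**Figure D4:**
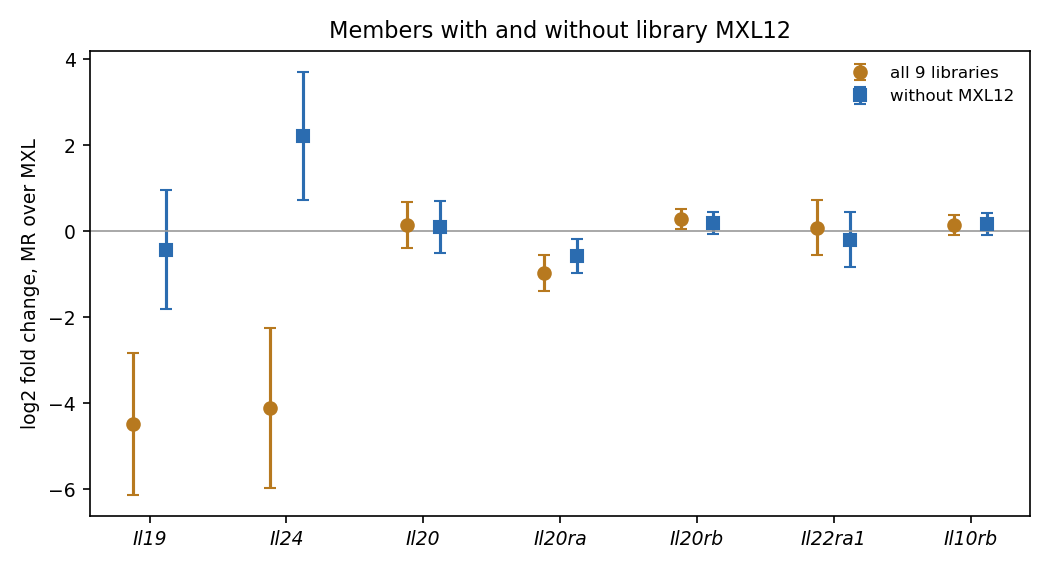
Log2 fold change of MR over MXL for 7 members from edgeR fits with no filter on low counts, with all 9 libraries and without MXL12. Bars are standard errors. Without MXL12 the value of Il19 moves from −4.47 to −0.43 and that of Il24 from −4.11 to 2.21, and the other 5 stay within 1 log2 unit of 0.

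Library MXL12 also stood apart in other genes. Of the tested genes, 11 (0.0528%) lay more than 10 times above each of the other 8 libraries in MXL12, against 5 in MXL_3, 1 in MR5 and 0 in each of the remaining 6. These genes were Gm45140, Cxcl5, Il19, Trem1, Kcnk10, Il1b, Tnfsf11, Gm18445, Nlrp12, Saa2 and Il6. Il24, with 27.9 times, would join them but did not pass the filter. They include the neutrophil chemokine gene Cxcl5 (7316 counts against at most 152) and the inflammatory cytokine genes Il1b (49835 against at most 3988) and Il6 (1068 against at most 106). The summed level of 11 neutrophil markers was 526.17 CPM in MXL12 and 26.8 to 149.25 CPM in the other 8 libraries. Of the 11 markers 7 were highest in MXL12, as were 14.5% of all tested genes. They included Ly6g with 79 counts against 0 to 59 and Cxcr2 with 6056 against at most 989. The markers Ngp (233 against 90 to 1482), Camp (40 against 0 to 169), Mpo (6 against 0 to 63) and Elane (0 against 0 to 8) lay within the range of the other 8. S100a9 (256.32 CPM) and S100a8 (91.8 CPM), which are also expressed by inflamed keratinocytes, made up most of the neutrophil sum in MXL12. T cells and innate lymphoid cells are the known source of IL-22, and their summed markers had 425.38 CPM in MXL12, within the 329.39 to 538.7 CPM of the other 8. Thy1 (152.31 CPM) and Rora (171.19 CPM) made up most of that sum in MXL12, while 4 of the 15 markers were highest there, namely Cd3g (958 counts against 225 to 749), Trdc (1846 against 279 to 1183), Il7r (1771 against 533 to 1397) and Il23r (192 against 37 to 141). The part of these differences in the values of Il24 and Il19 was not tested.

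The genes most like each member across the 9 libraries were named by Pearson r of log2(CPM + 0.5). These r values are descriptions, since the libraries share tissue composition, and are given with the value over 8 libraries without MXL12. The genes named for each member were picked as the highest among all tested genes over 9 libraries, which by itself favours a high r. Il24 was most like Dynap (0.988, then 0.869), Trem1 (0.984, then 0.879), which encodes a myeloid activating receptor, and Ptgs2 (0.982, then 0.964), which encodes the prostaglandin-forming enzyme COX-2. Ptgs2 counts were 16770 in MXL12 and at most 2055 elsewhere. Il19 was most like Kcnk10 (0.992, then 0.758), Serpina3n (0.977, then 0.644) and Rab7 (0.972, then 0.456), values that were lower without MXL12. Il24 and Il19 themselves correlated at 0.935 with MXL12 and at −0.345 without it.

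Il20 was most like Pyroxd1 (0.968, then 0.982), Ehf (0.954, then 0.962), which encodes an epithelial transcription factor, and Ms4a10 (0.945, then 0.948). Its r with Il20rb was 0.819, and 0.857 without MXL12. Il20rb was most like Chdh (0.979, then 0.977), Itprid2 (0.958, then 0.960) and Pdzd4 (0.953, then 0.949). Il22ra1 was most like Mark4 (0.990, then 0.988), Eya2 (0.988, then 0.989) and Atg9b (0.987, then 0.985). Il20ra was most like Bcat1 (0.926, then 0.817), Loxl4 (0.925, then 0.938) and Gm5417 (0.884, then 0.901). Il10rb was most like the leukocyte-expressed genes Ptafr (0.979, then 0.980), a receptor for platelet-activating factor, Tnfrsf1b (0.964, then 0.975), a receptor for TNF, and Sp110 (0.957 with and without MXL12). Il10rb and Il20 had an r of −0.686, and Il10rb and Il20rb of −0.558. Il22 was not compared because only 1 library was above 3 counts.

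Other genes of the pathway were followed in lists chosen with earlier results of these data known. None of the lists held a gene called by edgeR at an adjusted p under 0.05. Of 7 relatives of the family 4 were tested, with a median log2 fold change of 0.091 beside −0.032 over all tested genes, and none reached an unadjusted p under 0.05. Il10 had 50 to 157 counts in MR and 8 to 120 in MXL (0.80, SE 0.69). Il10ra, the ligand-binding chain of the IL-10 receptor, had 32.2 ± 7.08 and 28.1 ± 10.6 CPM. Il22ra2, which encodes a secreted decoy receptor for IL-22, had 1.15 ± 0.492 and 1.33 ± 0.748 CPM. Iltifb and the interferon lambda genes Ifnl2 and Ifnl3 had 0 counts in all libraries.

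All 10 signalling genes were tested and none reached an unadjusted p under 0.05, with a median of −0.060. Stat3, the main transcription factor of these receptors, had 168.85 ± 17.1 CPM in MR and 164.09 ± 22.5 CPM in MXL (0.041, SE 0.15). The kinase genes Jak2 and Jak1 had log2 fold changes of −0.36 (SE 0.24) and −0.067 (SE 0.19). Socs3, a feedback inhibitor that STAT3 induces, had 2114 counts in MXL12, its highest library, and 683 to 1902 in the MR libraries. The other MXL libraries had 768 to 1360 Socs3 counts. The log2 fold change of Socs3 was −0.077 (SE 0.34), and 0.22 without MXL12. MXL12 was the highest library for 3 of the 10 genes, and for 14.5% of all tested genes.

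Of 18 upstream cytokines and factors 15 were tested. Only Il33, an epithelial alarmin, reached an unadjusted p under 0.05, as did 1.57% of all tested genes (−1.37, SE 0.62, edgeR adjusted p = 1.00), with 38.8 ± 8.58 CPM in MR, 26.3 to 70.9 CPM in 3 MXL libraries and 275.48 CPM in MXL12. Without MXL12 its value was −0.12. Il6 had a log2 fold change of −2.06 and Il1b, a cytokine known to induce this subfamily, of −3.36, and both signs turned without MXL12, to 0.32 and 2.06. The median of the list was −0.68 with all libraries and 0.10 without MXL12, beside −0.032 and −0.028 over all tested genes. MXL12 was the highest library for 8 of the 15 genes, and for 14.5% of all tested genes. Without MXL12, Il1a and Il1b reached an unadjusted p under 0.05, both higher in MR, as did 1.78% of all tested genes in either direction. Il17a, Il17c and Il13 did not pass the filter. Il23a, a subunit of IL-23, which stimulates IL-22 production, had 0 to 54 counts in MR and 0 to 55 in MXL.

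Of 26 genes that the pathway is known to induce in keratinocytes 22 were tested, and 2 were higher and 2 lower in MR at an unadjusted p under 0.05, beside 0.773% and 0.793% of all tested genes. Il1f6, which encodes the epidermal cytokine IL-36 alpha, had 66.8 ± 29.4 CPM in MR and 19.5 ± 6.80 CPM in MXL (1.78, SE 0.42), and 1.99 without MXL12. Il1f9, which encodes IL-36 gamma, had 92.5 ± 26.0 and 53.5 ± 20.9 CPM (0.79, SE 0.32). Cxcl5 was at −4.98 (SE 1.80), with 7316 counts in MXL12 and at most 42 in another MXL library, and at 0.96 without MXL12. Mmp3, a matrix protease gene, was at −0.91 (SE 0.38), and at −0.63 without MXL12.

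The median of the induced genes turned from −0.37 to 0.83 without MXL12, beside −0.032 and −0.028 over all tested genes. MXL12 was the highest library for 12 of the 22, and for 14.5% of all tested genes. Without it, 18 of the 22 were above 0. Il1f6, Il1f9, Krt6b (3.15), Krt16 (2.40) and Cxcl1 (1.53) reached an unadjusted p under 0.05 there, as did 1.78% of 21332 tested genes. Krt6b and Krt16 encode keratins of activated keratinocytes.

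The 14 genes of the cornified layer, which the pathway is known to lower, were all tested. Of these 13 were above 0, with a median of 0.70 beside −0.032 over all tested genes. At an unadjusted p under 0.05, 6 were higher in MR and none lower, beside 0.773% and 0.793% of all tested genes. Casp14, which encodes a caspase of differentiating keratinocytes, had 524.21 ± 101.07 CPM in MR and 195.96 ± 65.5 CPM in MXL (1.42, SE 0.25, edgeR adjusted p = 1.00, DESeq2 adjusted p = 0.0072). Krt1, a suprabasal keratin gene, had 4784.7 ± 2279.3 and 1710.7 ± 799.51 CPM (1.48, SE 0.41). Flg, the gene of filaggrin, had 657.56 ± 346.11 and 255.63 ± 95.5 CPM (1.36, SE 0.40). Hrnr (1.07), Krt10 (1.23) and Ivl (0.70) were the other 3. The MR and MXL libraries did not overlap for Casp14 and Ivl, as for 0.514% of all tested genes. Without MXL12 the median was 0.61, beside −0.028 over all tested genes. The count at an unadjusted p under 0.05 was again 6, beside 1.78% of all tested genes in either direction. None of the 14 genes was highest in MXL12, against 14.5% of all tested genes. All 5 fibroblast markers were below 0 in the same comparison (median −0.43), and their summed level was 17557 to 30608 CPM in MR and 23511 to 45327 CPM in MXL. Of 7 basal keratinocyte markers 3 were above and 4 below 0, with sums of 2076.1 to 5622.4 and 1352 to 7117 CPM. The part of these markers in the values of the cornified-layer genes was not tested.

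**Figure D5:**
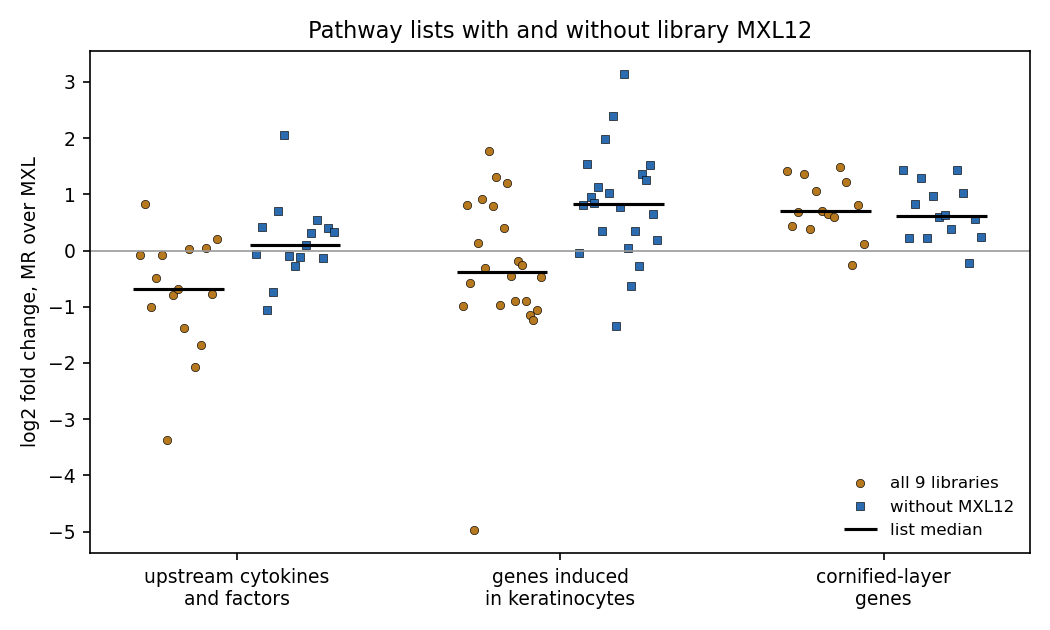
Log2 fold change of MR over MXL for the tested genes of 3 lists (15 upstream, 22 induced, 14 cornified-layer genes), with all 9 libraries and without MXL12. Each point is 1 gene and lines are list medians. The medians move from −0.68 to 0.10 and from −0.37 to 0.83 without MXL12, while that of the cornified-layer genes is 0.70 and then 0.61.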

How the data were processed

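RNA of mouse back skin was selected by its poly(A) tails, made into strand-specific libraries and sequenced with paired ends, per the study's methods. The labels list HISAT, StringTie and DESeq2 as processing tools and mm10 as the build. The role and version of each tool, the annotation and the strand setting are not given in the sources used here. The authors deposited whole-number counts per gene without normalization, and the authors also deposited FPKM values, scaled by them for gene length and depth. Another 9 columns of the FPKM table hold counts per library and were not used. Its coordinates were compared with GENCODE M21 (GRCm38), in which 34540 of 34637 genes were found and 31524 had the same start and end.

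The columns were assigned to the Model group (MXL, 4) and the FJDHF group (MR, 5) by the assumption stated above, and none was matched to a single mouse. The sample titles each name a numbered mouse, but no source links a column to a title. The p values therefore measure only the spread between libraries. Counts of each of 36 library pairs differed by more than sampling noise (chi-square per degree of freedom of at least 100.1).

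The edgeR package (4.0.16, R 4.3.3) fitted the counts with filterByExpr, TMM and the quasi-likelihood test without covariates. Calls needed at least 2-fold and a Benjamini-Hochberg adjusted p under 0.05. CPM values use TMM library sizes. At most 3 counts in a library counted as the floor, or 0.0377 to 0.0402 CPM by total counts, which reflects counting error alone because PCR duplicates are not separate molecules. The edgeR step was tested on simulated data. Alternatives were DESeq2 1.42.0 (size factors, Wald test), limma 3.58.1 on log2(FPKM + 1), no filter, at least 10 counts in every library, each library left out, a replicate block, pseudocounts of 1 and 0.01 and Spearman's rho. The replicate block was fitted only on libraries whose codes share a number between the groups, which left out MR4_5, MR5 and MXL12. A fit with neither filter nor MXL12 was added after the data were seen. Promoter windows came from RefSeq. Analyses of sequence and figures used Python 3.11.15 and matplotlib 3.10.9.

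The members and lists were chosen with earlier results of these data known. Genes named were the members, per list those called, those without overlap or the 3 with the smallest unadjusted p, the 3 genes most like each member by Pearson r, and genes needed beside a result. The 11 genes over 10 times higher in MXL12, Defb8, and the list genes Stat3, Socs3, Il23a, Krt6b, Krt16, Cxcl1, Hrnr and Krt10, were named after their values were seen. Not every gene selected by the naming rule is reported here.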

Additional observations from a re-analysis of the deposited data

Results flagged for a closer look

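In groups of 4 to 10 libraries the gap of the most extreme library to its nearest neighbour, divided by the range of the group, was compared with Dixon's 95% critical value, which chance passes in about 1 in 20 groups. The values compared were log2(CPM + 0.5). Of 16 comparisons, 8 members in 2 groups, 3 passed, and each was MXL12 within the MXL group. The ratio was 0.861 for Il19 and 0.944 for Il24. For Il22 it was 1.0, which rests on 8 counts in MXL12 and 0 in the other 3 libraries. Such zeros fix the ratio at 1.0, so it is no test for Il22. The members were chosen with results of these data known, so the 3 passes are a description. Within the MR group no member passed, and for Il22 the ratio could not be computed because all 5 libraries were at 0.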

How the results depend on the processing

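The count of called genes was 0 under every alternative run except DESeq2's Wald test, which called 2. Genes at an unadjusted p under 0.05 numbered 905 with no filter on low counts and 217 to 734 when libraries were left out, lowest without MR4_5 and highest without MXL1. The log2 fold change of Il20 lay between −0.17 without MXL_3 and 0.42 without MXL1, that of Il20rb between 0.094 with the replicate block and 0.53 without MXL1, and that of Il10rb between 0.027 without MXL1 and 0.38 with the replicate block. That of Il19 was −0.82 with limma on log2(FPKM + 1) and −0.43 without MXL12, that of Il20ra −0.36 with limma and −0.45 with a replicate block, that of Il22ra1 −0.22 without MR3 to 1.12 without MXL1 and that of Il24 2.21 without filter and MXL12. Filtered fits gave no value for Il22, and for Il24 only those without MXL1 (−4.51), MXL3_4 (−4.52) or MXL_3 (−4.52). The replicate block also left out MR4_5, MR5 and MXL12, so its values are not those of blocking alone. In the filtered fit without MXL12 alone the log2 fold change of Il20ra was −0.57.

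Of the 7 neighbour pairs ordered by level, 0 to 5 passed when 1 library was left out, against 4 with all, counting Il19 over Il22, whose direction the zeros of Il22 fix. With 8 libraries a single pair at the smallest p of 0.0078 does not pass after adjustment. Il24 over Il19 was −0.0238 with a pseudocount of 0.01, and −0.2476 without MR4_5 to 0.2999 without MXL3_4. Il20ra over Il20 lay between −0.1393 without MXL12 and 0.2333 without MR4_5.

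Of the 3 genes most like each member, Spearman's rho shared 0 for Il19, Il22ra1 and Il10rb and 1 for Il20, Il24, Il20ra and Il20rb. Leaving out MXL12 shared 0 to 1 for Il19, Il20ra, Il24 and Il20rb and 2 for Il20, Il22ra1 and Il10rb.

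Numbers shared by column codes (MR1 and MXL1, MR3_4 and MXL3_4, MR3 and MXL_3) gave no clear pairing of the libraries. The correlations of their deviations from the group means were 0.225, −0.219 and 0.118. MXL1 was the best match of MR1, but MR3 was the best match of MXL1. The other pairs were best matches in neither direction. So few correlations cannot exclude a pairing. With the replicate block, which also left out MR4_5, MR5 and MXL12, edgeR called 0 genes, and 256 had an unadjusted p under 0.05. At these depths Il22 and, outside MXL12, Il24 and Il19 lay near the counting floor, which limits their values to presence in few reads.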
